A study of Cynoglossus semilaevis with 24 samples.

Results

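The nuclear receptors for estrogen, androgen and progesterone were followed in 4 organs of the flatfish Cynoglossus semilaevis, the Chinese tongue sole, in which females grow larger than males. The members were the rows of the deposited gene table that carry the symbol of one of these receptors or are described as one, leaving out the estrogen-related orphan receptors and the membrane progestin receptors. They came to 8 of 22773 genes: 5 estrogen receptor rows, 1 androgen receptor row and 2 progesterone receptor rows. Symbols or identifiers found 4 of them and descriptions found the other 4. The groups were female and male brain, female and male pituitary, female and male liver, and female and male gonad, each of 3 pools. Every pool combined that organ from 5 fish aged 2 years, sexed genetically in the labels, with no treatment given there. Spread between single fish was therefore not seen, and in whole organs fewer cells of a type and less RNA per cell cannot be told apart.

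These receptors sit in the cytoplasm or nucleus, bind a steroid, pair up and attach to DNA, where they recruit coactivators or corepressors and change the transcription of nearby genes. In fish, as in other vertebrates, they carry the feedback of gonadal steroids to brain and pituitary, and in the liver estrogen receptors drive the synthesis of egg yolk precursors and egg envelope proteins. Teleosts commonly keep 1 alpha-type estrogen receptor gene (esr1) and a pair of beta-type genes (esr2a and esr2b).

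Among the estrogen receptor rows, esr1 is the alpha receptor and lies on chromosome 7 of the RefSeq assembly Cse_v1.0. The row labelled esr2 has the RefSeq symbol esr2b and lies on chromosome 1. LOC103382744, described as estrogen receptor beta-like, lies on the same chromosome with 24 genes between it and esr2. A further row described as estrogen receptor beta-like has the RefSeq symbol esr2a and lies on chromosome 7. XLOC_012345 is an unannotated locus with that same description and was not matched to the reference, so its relation to the other rows is not known here. The androgen receptor gene ar lies on chromosome 19 and the progesterone receptor gene pgr on chromosome 4. LOC103391230 on chromosome 15 is described as progesterone receptor-like, but its deposited KEGG orthology entry is the one given to ar, not the one given to pgr. It is therefore called by its identifier. No member placed in the reference lies on a sex chromosome. Where near-identical copies share reads, the split between rows such as esr2 and LOC103382744 is uncertain.

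Female gonad 1 held 25293742 estimated counts, and every other library held between 10032335 and 15409530. Defining markers followed the labels: the 10 pituitary hormone and lineage genes summed to 131200 to 174100 FPKM (fragments per kilobase of transcript and per unit of library depth) in pituitaries, the 8 hepatocyte genes to 75720 to 89140 FPKM in livers, and the 20 oocyte genes to 16650 to 19350 FPKM in female gonads. Female gonads are called ovaries and male gonads testes below. Some libraries stood apart in markers of other organs. The oocyte sum was 96.8 FPKM in female pituitary 3, against 54.03 and 39.72 FPKM in the other female pituitaries. It was 143.8 FPKM in male pituitary 3, against 29.84 and 64.28 FPKM in the other male pituitaries. Male brain 1 had 123.2 FPKM of it, where the other male brains had 13.68 and 12.96 FPKM, and female liver 1 had 39.61 FPKM, where the other female livers had 12.85 and 16.15 FPKM. The hepatocyte sum reached 2556 FPKM in female gonad 2, against 73.74 and 95.5 FPKM in the other ovaries. Called sex differences of the members that rest on these libraries are given with and without them. Those of listed genes outside the members are given with all pools only.

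Sex differences within an organ were tested with the quasi-likelihood test of edgeR on the rounded counts, over all genes that reached 1 FPKM in at least 3 of the 6 libraries. A gene was called at a Benjamini-Hochberg adjusted p under 0.05 over all genes tested in that organ. A log2 difference is female minus male, and folds come from the fit, so they can differ from a ratio of FPKM means. The SE given with an edgeR estimate is its absolute log2 difference divided by the square root of the F statistic of the test. Since the rows are compared within a library only per length, levels are in FPKM.

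**Figure D1:**
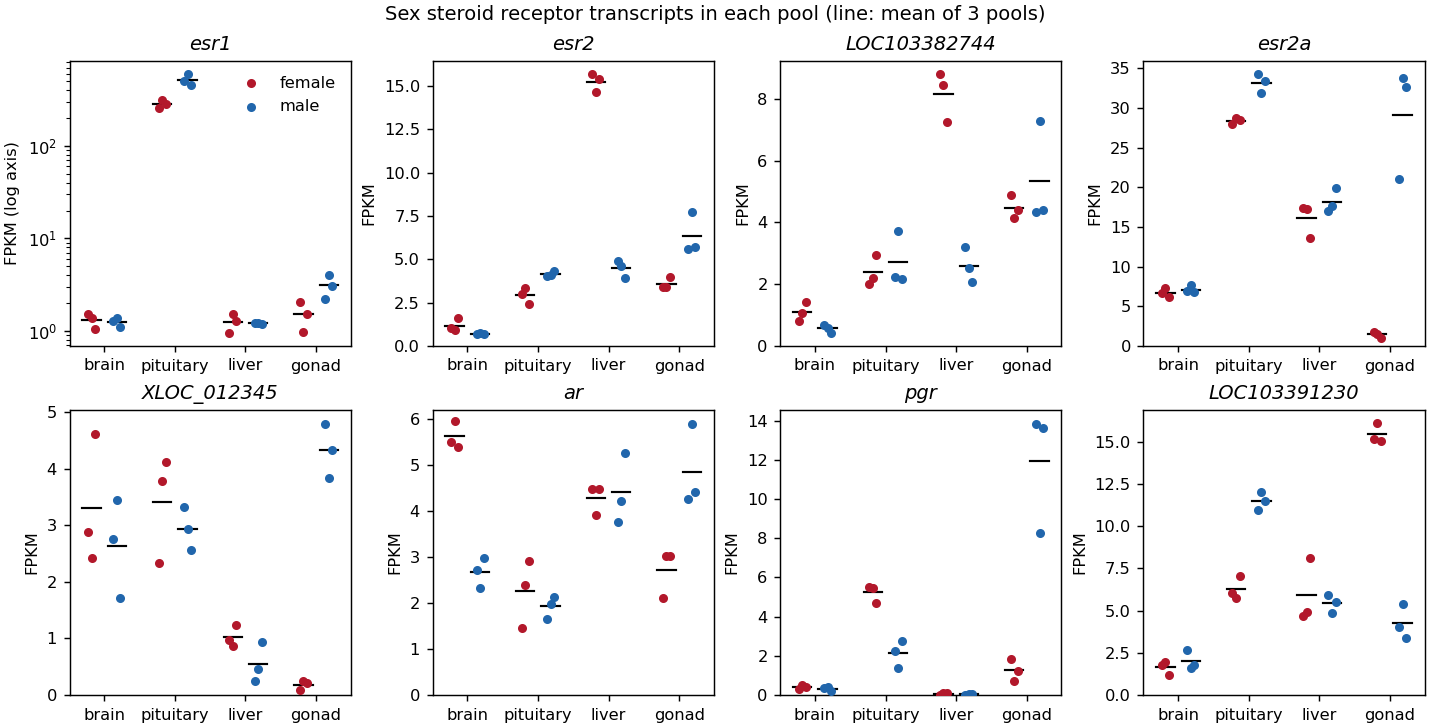
FPKM of the 8 sex steroid receptor rows in every pool of brain, pituitary, liver and gonad, females in red on the left of each pair and males in blue on the right, with a line at the mean of 3 pools. The axis of esr1 is logarithmic and the others are linear from 0. The pituitaries stand far above all other organs for esr1, female livers stand above male livers for esr2 and LOC103382744, and the gonads separate by sex for esr2a, XLOC_012345, pgr and LOC103391230.

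The alpha receptor gene esr1 was a pituitary transcript in both sexes. Female pituitaries had 258.52, 311.55 and 284.84 FPKM, and male pituitaries had 504.09, 600.12 and 453.83 FPKM. In no other organ did a pool pass 4.0 FPKM. Every male pituitary lay above every female pituitary, and the groups did not overlap. The mean was 285.0 ± 26.5 FPKM in female pituitaries and 519.3 ± 74.3 FPKM in male pituitaries (SD, n = 3 pools each), a log2 difference of -0.90 (SE 0.13, edgeR adjusted p = 0.000622). Leaving out female pituitary 3 and male pituitary 3 gave -1.0 (edgeR adjusted p = 0.00193). Marker sums also moved with sex in pituitary. The 12 neuron and glia genes summed to 255.6 to 271.0 FPKM in females and 312.2 to 364.6 FPKM in males, and 7 to 10 of them reached 1 FPKM in a pool. The pituitary hormone and lineage genes summed to 162400 to 174100 FPKM in females and 131200 to 155500 FPKM in males. Their part in the pituitary differences of esr1, pgr and LOC103391230 was not tested.

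Outside the pituitary esr1 was low. Pituitary hormone and lineage genes summed to 119.5 to 203.5 FPKM in brains, 89.86 to 99.14 FPKM in livers and 107.1 to 138.1 FPKM in gonads. Their part in the esr1 levels of these organs was not tested. Female brains had 1.51, 1.38 and 1.04 FPKM, against 1.27, 1.39 and 1.09 FPKM in male brains. Female livers had 0.95, 1.51 and 1.29 FPKM, against 1.21, 1.21 and 1.2 FPKM in male livers. The sexes overlapped in both organs and esr1 was not called in either: the log2 difference was 0.04 in brain (SE 0.27, edgeR adjusted p = 0.935) and -0.06 in liver (SE 0.23, edgeR adjusted p = 0.917). Ovaries had 2.05, 0.96 and 1.52 FPKM and testes had 2.23, 4.0 and 3.09 FPKM. No ovary reached the lowest testis, but relative to the other gonad genes the log2 difference was -0.20 (SE 0.34, edgeR adjusted p = 0.59).

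That last value depends on how ovary and testis are scaled to each other. The median log2 difference over all gonad genes tested was -0.24 with TMM, -0.08 with median-ratio scaling and -1.04 with no scaling beyond the count total. The share of called gonad genes that were higher in ovary was 46.1% with TMM, 48.9% with median-ratio scaling and 31.7% with no scaling. FPKM follows the count total. On log2(FPKM + 1), limma called esr1 lower in ovaries (-0.71, adjusted p = 0.0117), and also esr2 (-0.67, adjusted p = 0.00336) and ar (-0.66, adjusted p = 0.00601), none of which edgeR called. For these 3 genes no direction between ovary and testis is given here.

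The beta receptor gene esr2 was most abundant in female liver. Female livers had 15.69, 14.67 and 15.41 FPKM, against 4.90, 4.62 and 3.94 FPKM in male livers. All female pools lay at about the same level, far above all male pools. The log2 difference was 1.67 (SE 0.17, 3.19-fold, edgeR adjusted p = 0.000431), and without female liver 1 it was 1.59 (edgeR adjusted p = 0.00281). The hepatocyte genes summed to 88290 to 89140 FPKM in female livers and 75720 to 81930 FPKM in male livers, and their part in the liver differences was not tested.

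LOC103382744, the beta-like row on the same chromosome, showed the same direction in liver. Its female livers had 8.80, 8.43 and 7.25 FPKM, against 3.20, 2.52 and 2.07 FPKM in male livers. The groups did not overlap, and the log2 difference was 1.32 (SE 0.23, 2.49-fold, edgeR adjusted p = 0.00962). Without female liver 1 it was 1.21 (edgeR adjusted p = 0.0275). Without male liver 3, the lowest male pool, it was 1.15 and no longer called (edgeR adjusted p = 0.0528).

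In the other organs neither esr2 nor LOC103382744 was called. Female pituitaries had 3.00, 3.36 and 2.43 FPKM of esr2, below the 4.03, 4.09 and 4.32 FPKM of male pituitaries, with no overlap (log2 difference -0.51, SE 0.22, edgeR adjusted p = 0.117; -0.37 without both number 3 pools, edgeR adjusted p = 0.359). LOC103382744 had 2.0, 2.21 and 2.95 FPKM in female pituitaries and 2.24, 3.72 and 2.15 FPKM in male pituitaries, which overlapped (-0.21, SE 0.31, edgeR adjusted p = 0.649). Both fell below the filter in brain. There esr2 had 1.02, 0.90 and 1.60 FPKM in females and 0.66, 0.73 and 0.66 FPKM in males, and with no filter its log2 difference was 0.77 (edgeR adjusted p = 0.215). LOC103382744 had 0.79, 1.07 and 1.43 FPKM in female brains and 0.67, 0.59 and 0.43 FPKM in male brains (1.0 with no filter, edgeR adjusted p = 0.137). Each was higher in all female brains than in all male brains but was not called. The share of all genes whose brain pools separate in this way is not given here, and the rows may share reads.

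In gonad, ovaries had 3.41, 3.38 and 3.98 FPKM of esr2 and testes had 5.59, 7.74 and 5.73 FPKM. LOC103382744 had 4.88, 4.14 and 4.40 FPKM in ovaries and 4.32, 7.27 and 4.40 FPKM in testes. Its log2 difference was 0.56 (SE 0.27, edgeR adjusted p = 0.0716), and it was called higher in ovary with median-ratio scaling (0.72, adjusted p = 0.0262) and with DESeq2 (0.72, adjusted p = 0.0214), while limma on FPKM gave -0.18. Without female gonad 2, the ovary pool with hepatocyte transcripts, LOC103382744 was called (0.85, edgeR adjusted p = 0.0155) and esr2 was not (0.26, edgeR adjusted p = 0.361). For esr2 the value was -0.01 with all pools, 0.13 without female gonad 1 and 0.1 without female gonad 3. Filter and scaling were redone on the libraries left, so these fits cannot single out the part of the hepatocyte transcripts. LOC103382744 was also called without female gonad 3 (0.77, edgeR adjusted p = 0.0447) and when all 24 libraries were fitted together (0.74, edgeR adjusted p = 0.00883). The esr2 level of female gonad 2, 3.38 FPKM, lay beside the 3.41 FPKM of female gonad 1, and the part of hepatocyte transcripts in it was not tested.

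**Figure D2:**
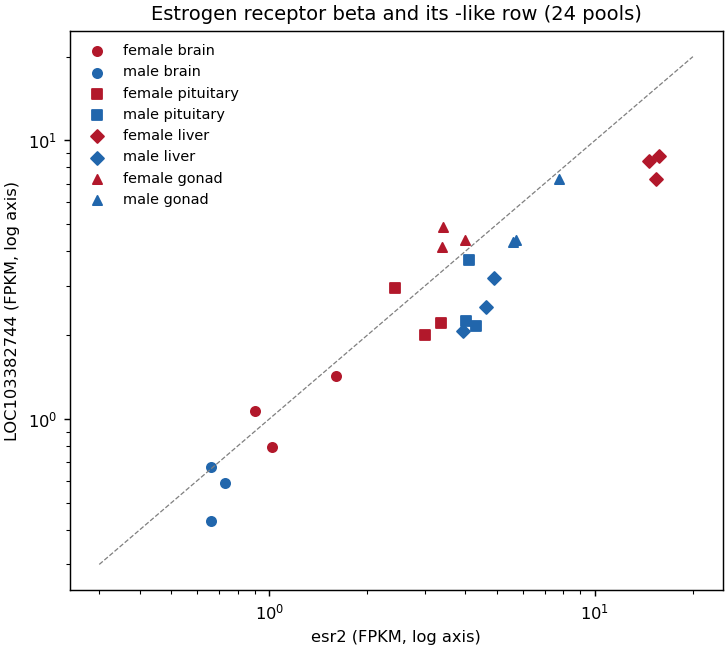
FPKM of LOC103382744 against FPKM of esr2 in all 24 pools, on log axes, females in red and males in blue with a marker per organ; the dashed line marks equal levels. The female livers lie at the upper right and below the line, and all ovaries lie above it.

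The levels of the chromosome 1 rows followed each other across the study but not in a fixed ratio. In FPKM, LOC103382744 divided by esr2 averaged 0.535 ± 0.0566 in female livers and 0.575 ± 0.0687 in male livers (SD, n = 3 pools each). In counts the livers of the sexes were less alike. Female livers had 171, 168 and 153 counts of LOC103382744 beside 393, 367 and 405 of esr2. Male livers had 74, 62 and 50 beside 120, 125 and 100. The FPKM ratio averaged 1.25 ± 0.165 in ovaries and 0.827 ± 0.0976 in testes. In ovaries it was 1.43, 1.22 and 1.11, above all 3 testes, at 0.773, 0.939 and 0.768. The Pearson correlation of their log2(FPKM + 1) means over the 8 groups was 0.950, and each was the gene closest to the other in pattern among 18620 genes compared. That is a description over 8 points, and reads shared by similar copies would raise it.

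The other beta receptor gene, esr2a, was nearly alike in the sexes in the 3 organs outside the gonad, with female livers at 17.33, 17.31 and 13.64 FPKM, against 17.03, 17.61 and 19.88 FPKM in male livers. Female brains had 6.71, 7.25 and 6.13 FPKM and male brains had 6.87, 7.68 and 6.74 FPKM. Female pituitaries, at 27.99, 28.74 and 28.42 FPKM, all lay below male pituitaries, at 34.24, 31.85 and 33.38 FPKM. None of these was called: the log2 difference was -0.27 in liver (SE 0.17, edgeR adjusted p = 0.368), -0.13 in brain (SE 0.10, edgeR adjusted p = 0.397) and -0.25 in pituitary (SE 0.09, edgeR adjusted p = 0.0706). Without both number 3 pituitary pools it was -0.26 (edgeR adjusted p = 0.188).

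In gonad esr2a separated the sexes widely. Ovaries had 1.81, 1.55 and 1.05 FPKM and testes had 20.98, 33.74 and 32.66 FPKM. The lowest testis was far above the highest ovary, with a log2 difference of -3.48 (SE 0.25, 11.1-fold lower in ovary, edgeR adjusted p = 2.51e-07). The value under the alternatives run lay between -4.30 and -3.09, and esr2a was called in all 15 of them. Without female gonad 2 it was -3.25 (edgeR adjusted p = 5.61e-06), and without male gonad 1 it was -4.16 (edgeR adjusted p = 5.74e-07). Without male gonad 2, the highest testis, it was -3.9. Marker sums of other sources also differed between the gonads: the blood genes summed to 81.65 to 104.3 FPKM in ovaries and 308.8 to 587.4 FPKM in testes, and the neuron and glia genes to 10.52 to 16.98 FPKM in ovaries and 31.97 to 36.03 FPKM in testes. Their part in the gonad differences was not tested.

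XLOC_012345, the unannotated beta-like locus, had 0.08, 0.24 and 0.22 FPKM in ovaries, against 4.80, 3.84 and 4.33 FPKM in testes. These ovary values rest on 4, 6 and 6 counts. The gonads did not overlap, and the log2 difference was -3.92 (SE 0.43, edgeR adjusted p = 5.22e-06; -3.99 without female gonad 2, edgeR adjusted p = 5.73e-06). Over the alternatives run, it lay between -4.71 and -2.17, and XLOC_012345 was called in all 11 that could be fitted. The row passed the filter only through the testes. Fits without a testis, or with the filter at 5 FPKM, therefore left it out, so dependence on a single testis was not tested.

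In brain XLOC_012345 had 2.89, 2.42 and 4.61 FPKM in females and 2.76, 3.44 and 1.72 FPKM in males, which overlapped (0.29, SE 0.29, edgeR adjusted p = 0.516). Pituitaries overlapped too, with 2.34, 3.78 and 4.12 FPKM in females and 3.32, 2.93 and 2.57 FPKM in males (0.18, SE 0.26, edgeR adjusted p = 0.636). Livers were under the filter, with 0.97, 0.86 and 1.23 FPKM in females and 0.24, 0.45 and 0.93 FPKM in males; with no filter the log2 difference was 0.83 (edgeR adjusted p = 0.332).

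Set side by side per length, the estrogen receptor rows made up different mixtures in each organ. In pituitary esr1 made up 88.4 ± 0.589% of summed estrogen receptor FPKM in females and 92.3 ± 0.99% in males. In liver esr2a had 38.4 ± 2.86% in females and 67.2 ± 3.47% in males, while esr2 had 36.6 ± 2.78% in females and 16.7 ± 2.3% in males; esr2a led in all male livers, and in female liver 3 esr2 led. Ovaries held mainly LOC103382744 (39.9 ± 0.461%) and esr2 (32.1 ± 3.93%), where testes held 11 ± 2.07% and 13.3 ± 1.7% of these rows. The esr2a share was 13.1 ± 3.21% in ovaries and 60.0 ± 4.87% in testes, and in brain it was 49.7 ± 7.41% in females and 58.4 ± 4.34% in males (SD, n = 3 pools each throughout). XLOC_012345 had 24.0 ± 6.43% in female brains, 21.2 ± 4.51% in male brains, 1.65 ± 0.885% in ovaries and 9.36 ± 3.0% in testes. Its relation to the other rows is not known here, which limits these shares. A share also depends on the other rows: esr2a was not called in liver, where the sexes did not overlap for its share. The sexes did not overlap for the esr2a share in liver or gonad nor for the esr1 share in pituitary. Other shares did not overlap either, among them those of esr2 and LOC103382744 in brain, liver and gonad. Each of these gave p = 0.1 in a two-sided exact permutation test, the smallest that 3 against 3 pools allow, so none can pass 0.05. As shares of summed counts, not per length, the female minus male difference of the esr2a share in liver was -19.1 percentage points in place of -28.8, and that of the esr1 share in pituitary was -6.21 in place of -3.83. In brain, where the sexes overlapped for the esr2a share, its difference was -8.68 percentage points, and -4.54 without female brain 3. The summed level was 322.1 ± 27.9 FPKM in female pituitaries and 562.3 ± 74.3 FPKM in male ones, and 41.78 ± 2.61 FPKM in female livers and 27.0 ± 0.885 FPKM in male ones. Ovaries summed to 11.22 ± 0.981 FPKM and testes to 48.24 ± 9.49 FPKM, while female brains had 13.58 ± 1.06 FPKM and male brains 12.23 ± 1.6 FPKM.

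**Figure D3:**
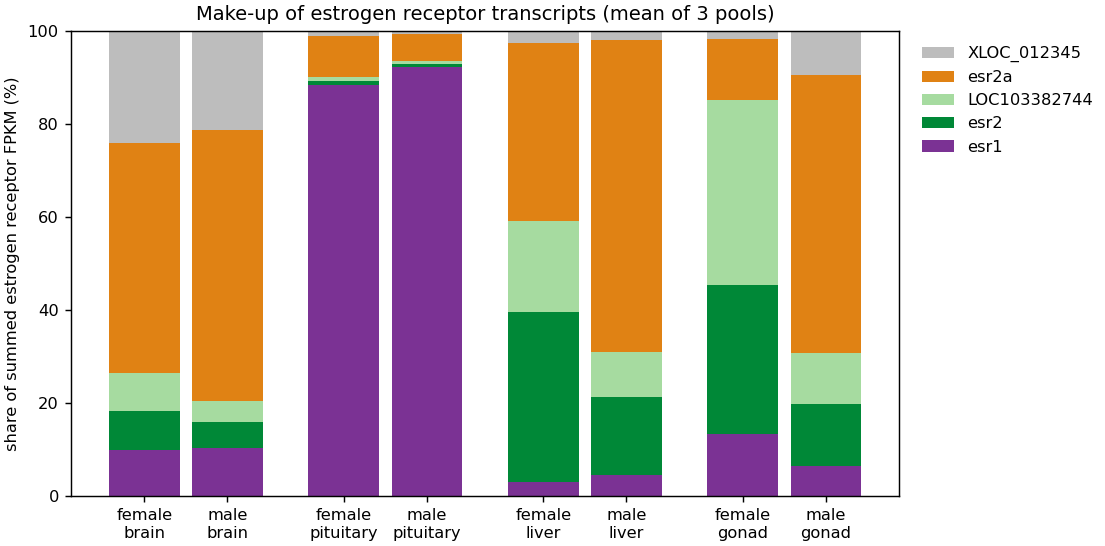
Share of each of the 5 estrogen receptor rows in summed estrogen receptor FPKM, in percent, as stacked means of 3 pools, with the female bar left of the male bar in each organ. The pituitaries consist mostly of esr1 (88.4% in females, 92.3% in males), and the esr2a part is smaller in female than in male livers and gonads.

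The androgen receptor gene ar, whose product binds testosterone and its derivatives, was called in brain. Female brains had 5.50, 5.96 and 5.39 FPKM, against 2.71, 2.32 and 2.98 FPKM in male brains. Every female brain lay above every male brain, with a log2 difference of 1.03 (SE 0.16, 2.04-fold, edgeR adjusted p = 0.000302). Without male brain 1, which carried oocyte transcripts, it was 1.04 (edgeR adjusted p = 0.0013). Marker sums of other sources also moved with sex in brain: the 8 hepatocyte genes, each at 1 FPKM or more in every brain, summed to 2916 to 3434 FPKM in females and 1921 to 2161 FPKM in males. The 12 blood genes summed to 1140 to 1566 FPKM in female brains and 969.7 to 1230 FPKM in male brains. Their part in the ar difference was not tested.

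In pituitary and liver ar was not called. Female pituitaries had 1.46, 2.38 and 2.90 FPKM, within reach of 1.66, 1.98 and 2.13 FPKM in male pituitaries (0.20, SE 0.28, edgeR adjusted p = 0.633). Female livers had 4.48, 3.90 and 4.48 FPKM and male livers 3.76, 4.21 and 5.26 FPKM (-0.13, SE 0.17, edgeR adjusted p = 0.682). Both organs overlapped between the sexes. Ovaries had 2.10, 3.01 and 3.01 FPKM and testes 4.25, 5.88 and 4.40 FPKM, with no overlap; with TMM the log2 difference was -0.04 (SE 0.24, edgeR adjusted p = 0.867), and it depended on the scaling as given for esr1.

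The progesterone receptor gene pgr, which in vertebrates is itself a classical target of estrogen, was called in pituitary and in gonad, in opposite directions. Female pituitaries had 5.50, 5.48 and 4.71 FPKM, against 2.23, 1.38 and 2.76 FPKM in male pituitaries. All female pituitaries were above all male ones (log2 difference 1.28, SE 0.22, 2.43-fold, edgeR adjusted p = 0.00174). Leaving out female pituitary 3 and male pituitary 3 gave 1.56 (edgeR adjusted p = 0.00175). In the same glands esr1 was lower in females, and a link between pgr and esr1 was not tested.

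Ovaries had 1.83, 0.71 and 1.24 FPKM of pgr and testes had 13.84, 8.28 and 13.64 FPKM. All ovaries were below all testes, by a log2 difference of -2.41 (SE 0.35, 5.31-fold, edgeR adjusted p = 0.000118). Without female gonad 2, the lowest ovary, it was -1.9 (edgeR adjusted p = 0.000216), and without male gonad 2, the lowest testis, -3.15 (edgeR adjusted p = 8.69e-05). It was also larger in size without male gonad 1 (-2.77) or male gonad 3 (-2.82). Filter and scaling were redone on the libraries left, so these shifts are not those of the left-out pool alone. Over the alternatives run the log2 difference lay between -3.22, with no scaling beyond the count total, and -1.9. Brain and liver were under the filter. Brains had 0.32, 0.50 and 0.38 FPKM in females and 0.36, 0.39 and 0.22 FPKM in males. Livers had 0.02, 0.08 and 0.11 FPKM in females and 0, 0.05 and 0.03 FPKM in males, from 13 counts in all over female livers and 5 over male livers, so a sex difference in liver was not detectable at this depth.

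LOC103391230, the row described as progesterone receptor-like, was called in the same organs as pgr but with the signs turned round. Female pituitaries had 6.05, 5.73 and 7.07 FPKM, against 10.94, 12.01 and 11.53 FPKM in male pituitaries. The groups were well apart (log2 difference -0.89, SE 0.14, 1.85-fold lower in females, edgeR adjusted p = 0.00121; -0.99 without female pituitary 3 and male pituitary 3, edgeR adjusted p = 0.0044). Ovaries had 15.15, 16.14 and 15.08 FPKM and testes had 4.01, 5.38 and 3.36 FPKM. All ovaries were far above all testes (2.66, SE 0.19, 6.31-fold, edgeR adjusted p = 1.88e-07; 2.85 without female gonad 2, edgeR adjusted p = 8.93e-08). Over the alternatives run it lay between 1.67, with limma on log2(FPKM + 1), and 2.87, and it was 2.0 without male gonad 3. Female brains had 1.80, 1.93 and 1.17 FPKM and male brains 2.69, 1.58 and 1.78 FPKM (-0.35, SE 0.28, edgeR adjusted p = 0.414). Female livers had 4.71, 4.91 and 8.11 FPKM and male livers 5.95, 4.87 and 5.50 FPKM (-0.02, SE 0.22, edgeR adjusted p = 0.978), and in both organs the sexes overlapped.

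Within a pool the ratio of LOC103391230 to pgr therefore ran in opposite ways in the sexes. It averaged 1.22 ± 0.249 in female pituitaries and 5.93 ± 2.43 in male pituitaries, and 14.4 ± 7.48 in ovaries and 0.395 ± 0.221 in testes (SD, n = 3 pools each). Against ar, with which it shares its KEGG entry, LOC103391230 averaged 5.86 ± 1.18 in ovaries and 0.874 ± 0.0967 in testes. That ratio was 0.289 ± 0.0627 in female brains and 0.757 ± 0.208 in male brains.

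**Figure D4:**
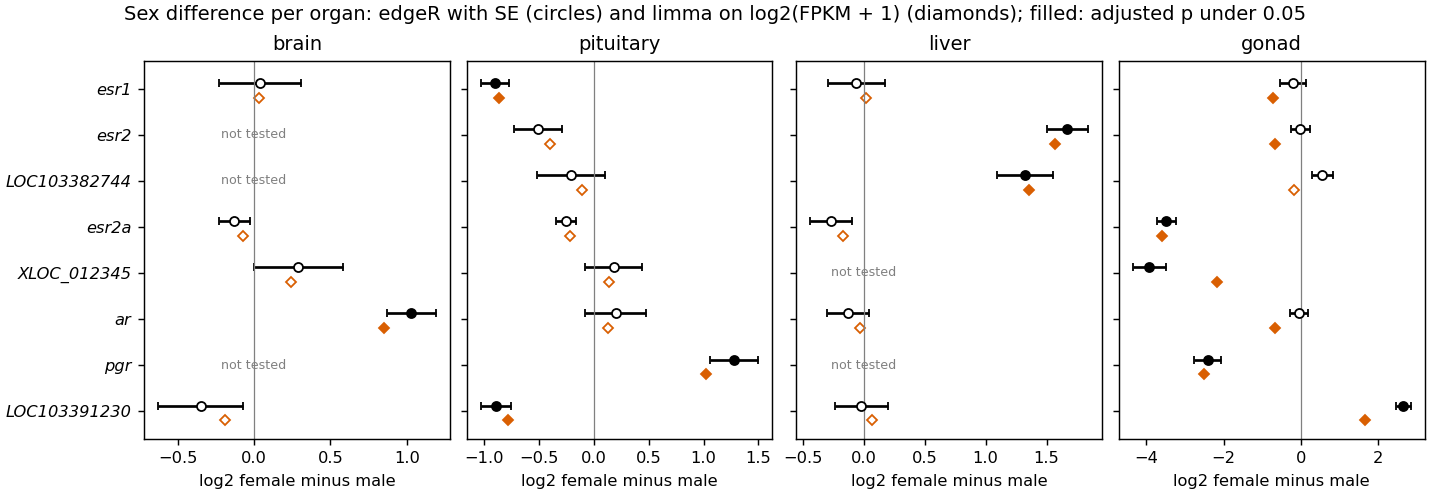
log2 difference, female minus male, of each receptor row in each organ. Circles are edgeR estimates, with bars for the SE derived from the F statistic, and diamonds are limma estimates on log2(FPKM + 1). Filled symbols have an adjusted p under 0.05, and rows under the filter are marked as not tested. Brain has ar to the right of 0 and liver has esr2 and LOC103382744; in gonad limma has 3 filled symbols, esr1, esr2 and ar, that are open circles in edgeR.

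Counted over all members, 1 of the 5 tested in brain was called, where 20.3% of all genes tested were. In pituitary 3 of 8 were called (26.7% of all genes tested) and in gonad 4 of 8 (84.2% of all genes tested). In liver 2 of 6 were called, both higher in females, where 6.82% of all genes were called and 1.88% were called higher in females. These 2 were esr2 and LOC103382744, which may share reads, and LOC103382744 lost its call without male liver 3. With so few members, these shares describe the rows and no more.

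Whether the sex difference of a receptor differs among brain, pituitary and liver was asked by the sex by organ term of an edgeR model on 18 libraries. That term was called for 4 of the 8 members, among them esr2 and LOC103382744, which may share reads, against 8.83% of all genes tested. For esr2 its adjusted p was 6.34e-05: the log2 difference was 1.67 in liver and -0.51 in pituitary. For LOC103382744 it was 0.0291, with 1.32 in liver and -0.21 in pituitary. In brain, with no filter, the log2 difference was 0.77 for esr2 and 1.0 for LOC103382744, in the direction of liver and not called. The call of LOC103382744 was lost without any of 6 libraries: female pituitary 1 (0.0754) or 2 (0.0695), male pituitary 2 (0.0988), female liver 1 (0.0512) or 2 (0.0503), or male liver 3 (0.0584). For esr1 the adjusted p was 0.0177, and the lower level in females stood in pituitary (-0.90) beside values near 0 in brain (0.04) and liver (-0.06); it was 0.068 in the fit of all 24 libraries. For ar it was 0.0234, with 1.03 in brain, 0.20 in pituitary and -0.13 in liver. That call was lost without female brain 2 (0.059), male brain 1 (0.0506) or 2 (0.068), or male liver 3 (0.051), and with limma on log2(FPKM + 0.1) (0.0513). The term was not called for esr2a (edgeR adjusted p = 0.849), XLOC_012345 (0.674), pgr (0.307) or LOC103391230 (0.144); with limma on log2(FPKM + 1) it was called for pgr (adjusted p = 0.00317). With gonads included in the fit, 8 of 8 members were called, where 72.4% of all genes tested were.

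Across organs within 1 sex, 6 contrasts between organs were tested per member, in a fit of the 12 libraries of that sex. edgeR with TMM called 42 of the 48 contrasts in females, where 74.7% of all gene contrasts were called, and 38 of 48 in males, where 70.8% were. limma on log2(FPKM + 1) called 40 in females and 38 in males. Both called 34 contrasts in the same direction in females and 26 in males, and both called 1 contrast in females and 6 in males in opposite directions. All 7 of these opposite calls set liver against another organ. TMM and the count total differ most there: over all genes the median log2 difference of liver minus brain in females was -0.07 with TMM and -2.23 with no scaling beyond the count total. Orders of organs are therefore stated only where both tests called the same direction.

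**Figure D5:**
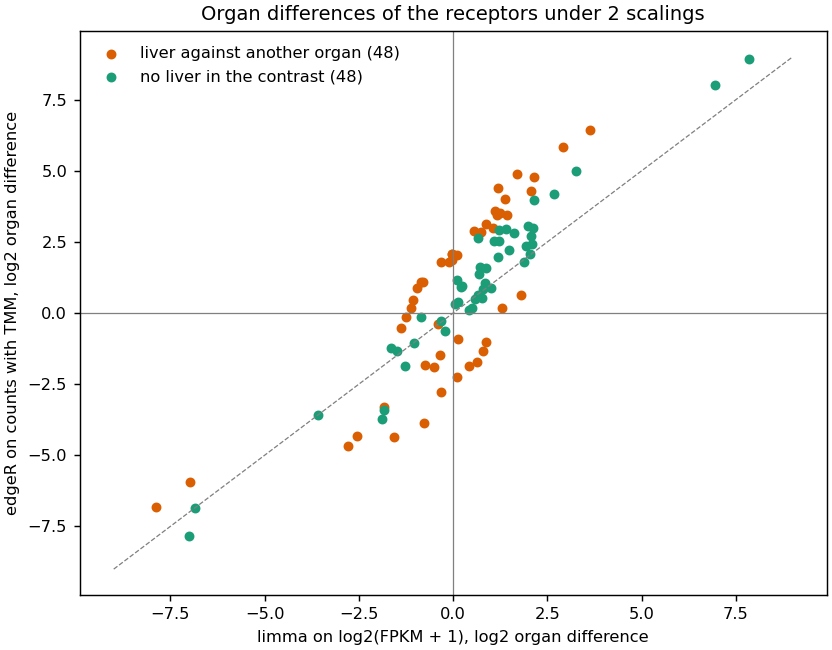
log2 difference between organs for the 8 receptor rows in females and males, from edgeR on counts with TMM (vertical) against limma on log2(FPKM + 1) (horizontal), with a dashed line at equality. The 48 contrasts that include liver (orange) scatter away from the line, and the 48 without liver (green) follow it more closely.

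By both tests, esr1 was highest in pituitary in both sexes. Pituitary exceeded gonad, the next organ by mean FPKM, by a log2 difference of 6.84 in females (SE 0.24, edgeR adjusted p = 1.6e-12) and 7.85 in males (SE 0.21, edgeR adjusted p = 3.63e-13). Gonad exceeded brain in males by both tests (1.06, edgeR adjusted p = 0.00016; 0.85, limma adjusted p = 0.000138), while in females the pools of gonad and brain overlapped and limma did not call them (0.10, adjusted p = 0.555). Brain and liver overlapped in FPKM in both sexes and were not called by limma, while edgeR called brain below liver (-2.07 in females, adjusted p = 3.23e-06; -2.09 in males, adjusted p = 3.39e-07). For testis minus male liver the tests gave opposite signs (-1.03 by edgeR, adjusted p = 0.000245; 0.87 by limma, adjusted p = 8.61e-05).

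For the chromosome 1 beta rows the first organ was liver in females by both tests. For esr2 liver exceeded gonad by 3.32 (edgeR adjusted p = 2.32e-10; 1.83 with limma, adjusted p = 2.93e-08), and for LOC103382744 by 1.83 (edgeR adjusted p = 7.61e-07; 0.74 with limma, adjusted p = 0.000282). In males testis had the highest mean FPKM of both, 6.353 for esr2 and 5.33 for LOC103382744, but for esr2 the log2 difference of testis minus liver was -1.88 with edgeR and 0.41 with limma, both called. The lowest organ was brain for esr2 and LOC103382744 in both sexes, below its neighbour in the order by both tests.

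The gene esr2a had its highest mean FPKM in pituitary in both sexes, at 28.38 in females and 33.16 in males. Its place against liver was not settled: in females edgeR gave liver above pituitary by 1.09 and limma gave pituitary above liver by 0.79. Pituitary exceeded brain by both tests (2.35 in females, edgeR adjusted p = 3.76e-08; 2.43 in males, edgeR adjusted p = 1.94e-09). Ovary was the lowest organ in females, below brain by both tests (1.22 for brain minus ovary, edgeR adjusted p = 1.61e-05). In males testis exceeded brain by both tests (1.80, edgeR adjusted p = 1.87e-08). For XLOC_012345, ovary was the lowest organ, below liver by both tests (3.87 for liver minus ovary, edgeR adjusted p = 1.08e-06), while in males edgeR called none of the 6 contrasts. The male means were 4.323 FPKM in testis, 2.94 in pituitary, 2.64 in brain and 0.54 in liver, and limma called testis above brain (0.57, adjusted p = 0.0147) and liver below each other organ.

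For ar, female brains averaged 5.617 FPKM, female livers 4.287, ovaries 2.707 and female pituitaries 2.247. Testes averaged 4.843 FPKM, male livers 4.41, male brains 2.67 and male pituitaries 1.923. Liver exceeded ovary in females by both tests (1.91, edgeR adjusted p = 8.36e-07; 0.52 with limma, adjusted p = 0.00945), and liver exceeded brain in males by both tests (2.87, edgeR adjusted p = 1.99e-09; 0.55 with limma, adjusted p = 0.00352). Brain and liver in females, and testis and liver in males, were not ordered alike by the tests.

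The first organ for pgr was pituitary in females and testis in males. Pituitary exceeded ovary in females by 1.34 (SE 0.30, edgeR adjusted p = 0.000694), and testis exceeded pituitary in males by 2.06 (SE 0.29, edgeR adjusted p = 1.17e-05), both also called by limma. For LOC103391230 ovary exceeded pituitary in females by 1.96 (SE 0.20, edgeR adjusted p = 1.7e-07). In males the log2 difference of testis minus pituitary was -1.88 (SE 0.21, edgeR adjusted p = 9.39e-07), and limma called both differences in the same directions. So the first organ of LOC103391230 outside the liver was the gonad in females and the pituitary in males, and that of pgr was the pituitary in females and the gonad in males.

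Genes with the most similar pattern were taken by Pearson correlation of log2(FPKM + 1) over the 8 group means, as a description among 18620 genes. For esr1 they included crybb1l1 (0.9997), LOC103397927 (0.9996) and loxhd1b (0.9991), which had their highest mean in male pituitary. That mean was 1.68 FPKM for crybb1l1, 393.0 FPKM for LOC103397927 and 5.65 FPKM for loxhd1b, so a high correlation does not mean a similar level. For esr2a they were cgn, which encodes the tight junction protein cingulin (0.9892), baiap2l1 (0.9812), arfgap3 (0.9809) and LOC103384243 (0.9752). For esr2, after LOC103382744, they were eef1da (0.9084), fpgs (0.9025) and mpv17 (0.8934). LOC103382744 was followed by mpv17 (0.9358), aimp2 (0.929) and LOC103379319 (0.9119). For ar they were LOC103382211 (0.956), aebp1 (0.9314), the collagen chaperone gene serpinh1a (0.9253) and lypc (0.8943). For pgr they were LOC103388493 (0.9874), the noggin-1-like gene LOC103384216 (0.978), LOC103396508 (0.9767) and ctnna1 (0.976). For LOC103391230 they included alas1, which encodes the first enzyme of heme synthesis (0.9833), ttc38 (0.9782) and LOC103378351 (0.9703). For XLOC_012345 they were ppcdc (0.9974), LOC103394164 (0.994) and the nischarin-like genes nisch (0.9917) and LOC103386431 (0.9915).

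The receptors act through coregulators, of which 28 were matched. The counts of this list and of the lists after it are to be read against the share of all genes called, which was 20.3% in brain, 26.7% in pituitary, 6.82% in liver and 84.2% in gonad. In brain 2 of 26 tested were called higher in females and 3 lower, and in pituitary 1 of 27 was higher and 5 lower; in liver edgeR called 0 of 24, with 2 at an unadjusted p under 0.05, and DESeq2 and limma called 0. The median log2 difference of the list was 0.03 in brain, -0.16 in pituitary and 0.04 in liver, beside 0.01, 0.01 and 0.02 over all genes tested. In pituitary the coactivator gene ncoa4 fell to 58.84 ± 3.79 FPKM in females, against 100.9 ± 6.73 FPKM in males (edgeR adjusted p = 0.000336). The corepressor gene nrip1 was higher, at 12.99 ± 1.04 FPKM in females, against 8.197 ± 0.905 FPKM in males (edgeR adjusted p = 0.00208). In gonad 6 of 26 were higher in ovary and 17 lower, with a list median of -1.39 beside -0.24 over all genes, under TMM; other scalings were not applied to the lists. There nrip1 was at 0.4367 ± 0.10 FPKM in ovaries and 9.803 ± 0.787 FPKM in testes (SD, n = 3 pools each; edgeR adjusted p = 2.95e-08).

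Among 14 chaperone genes that hold unliganded steroid receptors ready, 1 of 14 tested was higher and 4 were lower in female brains, 1 of 13 was higher and 3 were lower in female pituitaries, and edgeR called 0 of 13 in liver, where 3 had an unadjusted p under 0.05, DESeq2 called 1 and limma called 0. The list median was -0.07 in brain, -0.23 in pituitary and 0.19 in liver. In female pituitaries hsp90aa1, an HSP90 gene, was at 15.29 ± 1.21 FPKM, against 35.58 ± 12.7 FPKM in male ones (edgeR adjusted p = 0.00787). In ovary 3 of 14 were higher and 9 lower (median -0.77), among them the co-chaperone gene fkbp4 at 13.8 ± 2.25 FPKM in ovaries and 119.0 ± 16.1 FPKM in testes (edgeR adjusted p = 1.56e-07).

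Of related receptors outside the members, 1 of 13 tested was higher and 3 were lower in female brains, 3 of 11 were higher and 3 lower in female pituitaries, 1 of 7 was called in liver, lower in females, and 5 of 12 were higher and 4 lower in ovaries. List medians were 0.01, 0.07, -0.19 and 0.05 in that order. The estrogen-related orphan receptor gene esrra, which binds no estrogen, was lower in females in all 3 organs outside the gonad: 8.457 ± 1.2 against 20.64 ± 4.82 FPKM in male brains, 10.05 ± 2.75 against 32.61 ± 5.27 FPKM in male pituitaries, and 1.827 ± 0.577 against 3.54 ± 0.461 FPKM in male livers (edgeR adjusted p = 0.000204, 0.00054 and 0.0242). In liver limma did not call esrra (-0.70, adjusted p = 0.066), while DESeq2 did (-1.12, adjusted p = 0.00208). The membrane progestin receptor gene paqr7b was lower in female pituitaries, at 3.19 ± 0.469 against 7.003 ± 0.662 FPKM in male ones (edgeR adjusted p = 0.003). It was higher in ovaries, at 14.74 ± 3.15 against 1.577 ± 0.764 FPKM in testes (edgeR adjusted p = 7.39e-07).

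Of genes known in vertebrates to respond to estrogen, 1 of 18 tested was higher and 2 were lower in female brains, 1 of 22 was higher and 3 were lower in female pituitaries, and 1 of 14 was called in liver, lower in females. The gene called higher in female pituitaries is an egg envelope gene. Pituitary pools held oocyte transcripts, as given above, and their part in that call was not tested. In liver 4 had an unadjusted p under 0.05, DESeq2 called 2 and limma called 0. The list medians were -0.32, -0.18 and 0.41. In pituitary greb1l, related to a gene induced by estrogen in mammals, was at 18.99 ± 0.214 FPKM in females and 67.99 ± 18.9 FPKM in males (edgeR adjusted p = 0.000187). The aromatase gene LOC103380488, whose product makes estrogen, was at 12.32 ± 3.91 FPKM in female pituitaries and 41.43 ± 5.41 FPKM in male ones (edgeR adjusted p = 0.00127). In the liver, where the estrogen receptors esr2 and LOC103382744 were higher in females, the yolk precursor genes were near 0. Female livers averaged 0.41 ± 0.266 FPKM of vtg3, against 0.103 ± 0.0379 FPKM in males, and 0.46 ± 0.459 FPKM of LOC103393982, against 0.513 ± 0.15 FPKM in males. A link of these levels to the receptors was not tested. In ovary 25 of 34 were higher and 7 lower with a median of 4.29, and the named leaders zp3f.1 and zp3f.2 are egg envelope genes, which oocytes express: zp3f.1 was at 1498.0 ± 56.6 FPKM in ovaries and 1.13 ± 0.193 FPKM in testes (edgeR adjusted p = 7.57e-11).

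Of genes known to respond to androgen or progestin, 1 of 13 tested was higher and 4 were lower in female brains, 1 of 10 was higher and 4 were lower in female pituitaries, 2 of 7 were called in liver, both lower in females, and 1 of 12 was higher and 10 lower in ovaries. The list medians were -0.30, -0.70, -0.61 and -2.05. In brain, where ar was higher in females, fkbp5 was lower, at 34.06 ± 15.2 FPKM in females and 175.3 ± 51.1 FPKM in males (edgeR adjusted p = 0.0326); fkbp5 also responds to glucocorticoids. The protease gene adamts9 had 0.5067 ± 0.121 FPKM in females, against 4.097 ± 1.25 FPKM in males (edgeR adjusted p = 1.82e-06). It was also lower in female pituitaries, at 0.3133 ± 0.0757 against 5.43 ± 0.727 FPKM in males (edgeR adjusted p = 3.02e-07). There ar was not called. In pituitary, where pgr was higher in females, adamts1, which in mammals responds to progesterone in the ovary, was at 5.943 ± 0.355 FPKM in females and 17.95 ± 0.912 FPKM in males (edgeR adjusted p = 2.55e-06). Female brains also had less adamts1, at 4.42 ± 0.558 against 9.757 ± 1.45 FPKM in males (edgeR adjusted p = 2.69e-05). Female livers had 1.873 ± 0.673 against 5.503 ± 0.374 FPKM in males (edgeR adjusted p = 0.00199). In both of these organs pgr was under the filter. Receptor calls are set beside these genes as description, and a link between any receptor and a listed gene was not tested. The lists describe transcripts only, and receptor protein and hormone levels were not measured.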

How the data were processed

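RNA of 24 pooled libraries (8 groups of 3 pools, each of 5 fish) was sequenced on an Illumina instrument, per the labels' protocols. Per the file headers, the authors deposited an estimated count and an FPKM value per gene and library; the counts were whole in 97.1 to 98.4% of values and were rounded. TopHat2 2.0.3.12 and Bowtie2 were used, per the submitters' processing notes; the quantifier, genome build and annotation are not given in the sources used here. Of 20373 NCBI identifiers, 19502 were found in RefSeq Cse_v1.0, which gave symbols and chromosomes.

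Counts were fitted with edgeR 4.0.16 (TMM, robust quasi-likelihood), FPKM with limma 3.58.1 (trend, robust) on log2(FPKM + 1), in R 4.3.3; DESeq2 1.42.0 was an alternative. The code was tested on simulated data. P-values were adjusted by Benjamini-Hochberg over all genes tested in a contrast. The filter was 1 FPKM or more in at least 3 libraries. Named were all members, at most 3 called genes per list and organ with the largest difference and no overlap, and the 4 genes most like each member among those with a range of at least 1 on the log2 scale. Of these list genes, only examples are printed. Some genes that the rule names are not reported here. The members and lists were chosen with earlier results of these data known; description patterns that completed the lists and markers were added after the annotation was seen.

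The labels do not say whether pools of different organs came from the same fish. Same-numbered female and male pools of an organ did not deviate together, and the replicate number was left out of the fits. That comparison bears on the sex differences within an organ. In some organ pairs of 1 sex, same-numbered pools did deviate together. The main organ contrasts and sex by organ term did not take that into account. Alternatives were other scalings, filters, tests and pseudocounts, the replicate number as a block, all libraries in 1 fit, and leaving out libraries. When a library was left out, filter and scaling were redone on the rest, so a shift is not that of the left-out pool alone.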

Additional observations from a re-analysis of the deposited data

Results flagged for a closer look

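The sex difference of 4 receptor rows differed among brain, pituitary and liver in a test of that difference. Among brain, pituitary and liver the adjusted p of the edgeR term for sex by organ was 6.34e-05 for esr2, 0.0177 for esr1, 0.0234 for ar and 0.0291 for LOC103382744. The call was lost for esr1 in the fit of all 24 libraries (0.068), for LOC103382744 without any 1 of 6 libraries and for ar without any 1 of 4 libraries. With the gonads included in the fit, an alternative chosen after the data were seen, 72.4% of all genes tested were called, and the other 4 rows were among them. The adjusted p was 4.3e-11 for esr2a, where the log2 difference was -3.48 in gonad and between -0.27 and -0.13 in the other organs. It was 2.05e-10 for LOC103391230, which was higher in ovary (2.66) and lower in female pituitary (-0.89). It was 1.99e-06 for pgr, which was lower in ovary (-2.41) and higher in female pituitary (1.28). It was 1.31e-06 for XLOC_012345, at -3.92 in gonad beside 0.29 in brain and 0.18 in pituitary. Ovary and testis are different organs, and 84.2% of all genes tested there were called.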

How the results depend on the processing

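The calls of ar in brain, of esr1, pgr and LOC103391230 in pituitary, of esr2 in liver and of esr2a, XLOC_012345, pgr and LOC103391230 in gonad held with the same sign in every alternative that could be fitted. For XLOC_012345 these did not include leaving out a testis, since it passed the filter only through the testes. Counting each named value once per alternative, 853 kept sign and side of the threshold, 57 changed sign, 23 passed the threshold and 16 lost it. The sex by organ terms are among them and have no sign, so for them only the side of the threshold counts. The number of members called in gonad was 4, and 7 with no scaling beyond the count total, 7 with limma on log2(FPKM + 1) and 7 with limma on log2(FPKM + 0.1). With gonads included, 8 members had a called sex by organ term in place of 4 (72.4% of all genes tested, in place of 8.83%). Leaving out 1 library in turn gave 1 to 2 members called in liver and 2 to 4 for the term, the lowest of both without male liver 3. With the replicate block the members called were 1 in brain, 3 in pituitary, 2 in liver, 4 in gonad and 4 for the term, and 42 and 38 organ contrasts in females and males, as without it. In the fit of the term the block held 1 effect per number for both sexes together, so it did not take up pairing within a sex. The same-numbered female and male pools correlated between -0.174 and 0.225 in their deviations, so the numbers do not pair them. Female pituitary and brain pools of a number correlated at 0.136 to 0.214, and each pool was closest to the pool of its own number. The same held for female liver and brain (0.0915 to 0.154) and male liver and brain (0.0441 to 0.0623). It also held for male gonad and brain (0.0562 to 0.0885) and male gonad and liver (0.0388 to 0.0791). In the other organ pairs it did not.

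Many values changed sign under another setting; the cause was not tested. In the fit of all 24 libraries esr1 was at -0.01 in brain and 0.0 in gonad, esr2 at 0.17 and ar at 0.14 in gonad. In liver, with no scaling, limma + 1 and limma + 0.1, esr1 was at 0.06, 0.02 and 0.02 and LOC103391230 at 0.1, 0.07 and 0.08, the last gene also at 0.01 with a filter at 5 FPKM. XLOC_012345 was at -0.07 in pituitary without female pituitary 3 and male pituitary 3. In gonad, median-ratio scaling, no filter and DESeq2 gave 0.15, 0.04 and 0.15 for esr2 and 0.11, 0.01 and 0.11 for ar. No scaling, limma + 1 and limma + 0.1 gave -0.26, -0.18 and -0.21 for LOC103382744 in gonad. The same 3 settings gave 0.52, 0.41 and 0.48 for esr2 (edgeR -1.88) and 0.14, 0.11 and 0.13 for ar (-2.25) in testis minus liver. They gave -0.82, -0.79 and -0.82 for esr2a in liver minus pituitary of females (1.09), -0.39, -0.32 and -0.38 for ar in liver minus brain of females (1.78), and -1.07, -0.96 and -1.07 for LOC103391230 in liver minus pituitary of males (0.89).

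Leaving out 1 library in turn, the sex difference ranged between -0.07 and 0.18 for esr1 and -0.02 and 0.5 for XLOC_012345 in brain, between -0.38 and 0.09 for LOC103382744 and -0.02 and 0.45 for ar in pituitary, and between -0.17 and 0.06 for esr1 and -0.28 and 0.13 for LOC103391230 in liver. In gonad it ranged between -0.88 and 0.26 for esr1, -0.6 and 0.26 for esr2, -0.07 and 0.85 for LOC103382744, negative without male gonad 1 or 3, and -0.62 and 0.22 for ar. Testis minus pituitary of XLOC_012345 ranged between -0.01 and 0.3.

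In brain and liver, no scaling moved the share of called genes that were higher in females to 57.0% (46.2% with TMM) and 39.0% (27.6%). Depth limits pgr in liver and XLOC_012345 in ovary, and 3 pools per sex limit the exact test of shares.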
